A study of Mus musculus with 12 samples.

Results

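Interferon-stimulated genes (ISGs) are the genes that a cell switches on when interferon binds its receptors. The members were the rows of the deposited table whose gene symbol was one of 38 chosen ISG symbols, and they made up 38 of the 45777 genes in the table. All 38 symbols were found, and all 38 genes passed the filter on low values, so none was lost before testing. The 38 comprise 4 regulators and signal transducers, 3 members of the IFIT family, 5 of the OAS family, 3 of the ISG15 system, 3 nucleic acid sensors, 3 genes of the PARP and DTX3L complex, 6 GTPases, 7 other antiviral effectors and 4 other interferon-induced genes.

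Type I interferons act through a receptor whose kinases phosphorylate STAT2, which works with IRF9 in a complex that binds interferon-stimulated response elements, while interferon-gamma acts mainly through gamma-activated sites. IRF1 and IRF7 are themselves interferon-induced factors that widen the response, and USP18 and the SOCS proteins restrain it. In T cells the same genes are known to set antiviral resistance and to tune growth and survival after stimulation.

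The samples were RNA-seq libraries of CD4+ T cells from the spleens of wild type C57BL/6 mice, given in the labels as 7 weeks old, and cultured for 3 days with anti-CD3 antibody at 0.5 µg/ml. The 4 groups had 3 samples each: Control (anti-CD3 without a drug), Metformin (a biguanide antidiabetic drug), FK506 (tacrolimus, a calcineurin inhibitor that blocks T cell receptor signalling to NFAT) and Metformin+FK506 (both drugs together). Every group carried the same anti-CD3 stimulus, and the design asked how each drug and their combination changed the stimulated cells. The drug doses of these cultures are not given in the sources used here, and the study's methods describe T cell activation with anti-CD28 as well and mice of another age. The labels do not say whether the 3 samples of a group came from separate mice or cultures, so the p-values measure the spread between these samples, which may be technical.

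Libraries held 43402632 to 64290105 gene counts, and no pair of replicates agreed within sampling noise. The labelled cell type was checked with markers. Cd3e lay at 150 to 248 FPKM (fragments corrected for the length of the transcript and the size of the library) and Cd4 at 139 to 254 FPKM over the 12 samples, while Cd8b1 was at 4.95 to 11.0 FPKM. Marker transcripts of other cells differed between the groups. The summed FPKM of 10 B cell markers was 52.1 ± 1.04 in Control, 71.6 ± 3.98 with Metformin, 869 ± 27.6 with FK506 and 423 ± 16.3 under both drugs (SD, n = 3 throughout). The sum of 10 macrophage and monocyte markers was 4.41 ± 0.0986, 8.97 ± 0.657, 1245 ± 17.6 and 841 ± 67.2 FPKM in the same order. Of these markers C1qa, C1qc, Adgre1 and Fcgr1 were listed at 0 in all 3 Control samples. Thus B cell and macrophage transcripts were far higher in the FK506 cultures, with smaller differences between Metformin and Control. In bulk RNA, fewer cells of a type and less RNA per cell cannot be told apart.

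**Figure D1:**
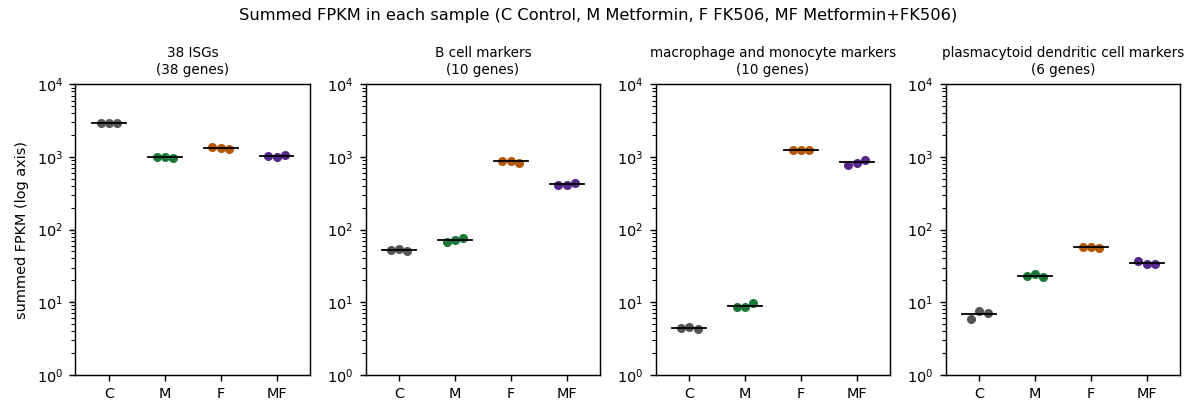
Summed FPKM (log axis) of the 38 ISGs, 10 B cell markers, 10 macrophage and monocyte markers and 6 plasmacytoid dendritic cell markers in each sample (points) with the group mean (line). The ISG sum is highest in the 3 Control samples, while the marker sums of other cells are highest with FK506, the macrophage and monocyte sum rising from 4.41 in Control to 1245.

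To show the control sequences of the members, promoter windows were taken from RefSeq (GRCm38.p6), each running from 250 bases before to 50 bases after an annotated transcript start. Some of these starts, as that of Ifit3, lie inside the gene as annotated, downstream of its outermost start. Windows were found for 28 of the 38 members (35 windows, since 6 members had several). Each was searched on both strands for the core of an interferon-stimulated response element, GAAANNGAAA (TTTCNNTTTC on the other strand), and for the gamma-activated site TTCNNNGAA, which reads the same on both strands. The former stood in 14 of the 28 members (50%), against 3.99% of all 27025 genes with a window and 4.02% of the 10685 tested genes with one. The gamma-activated site stood in 7 of 28 (25%), against 9.55% and 8.19%. Oas1a, Bst2 and Igtp held both motifs, and 10 members held neither. A match of letters is a description and not a shown binding site, and a window without one says nothing about a factor.

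The windows printed here were chosen because they belong to the members with the response element that rose most (Ifit3 and Gbp3) and fell most (Isg15 and Oas3) with FK506, and to Irf1, the regulator with a gamma-activated site. They read 5′ to 3′ along the gene's own strand, and capitals mark the motif. The last 50 bases of each run follow the transcript start.
Ifit3 (chr19:34583279-34583578, + strand): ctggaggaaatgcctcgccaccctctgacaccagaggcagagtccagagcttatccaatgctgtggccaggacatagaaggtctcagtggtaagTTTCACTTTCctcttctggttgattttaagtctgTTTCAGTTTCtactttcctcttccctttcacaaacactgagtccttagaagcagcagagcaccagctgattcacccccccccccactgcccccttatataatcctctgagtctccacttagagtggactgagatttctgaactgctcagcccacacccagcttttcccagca
Gbp3 (chr3:142559794-142560093, + strand): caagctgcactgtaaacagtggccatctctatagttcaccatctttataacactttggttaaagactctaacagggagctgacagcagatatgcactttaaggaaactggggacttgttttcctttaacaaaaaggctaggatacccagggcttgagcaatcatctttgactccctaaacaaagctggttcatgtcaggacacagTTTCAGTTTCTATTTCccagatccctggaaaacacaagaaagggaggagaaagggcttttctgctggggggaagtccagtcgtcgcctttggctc
Isg15 (chr4:156200769-156201068, - strand): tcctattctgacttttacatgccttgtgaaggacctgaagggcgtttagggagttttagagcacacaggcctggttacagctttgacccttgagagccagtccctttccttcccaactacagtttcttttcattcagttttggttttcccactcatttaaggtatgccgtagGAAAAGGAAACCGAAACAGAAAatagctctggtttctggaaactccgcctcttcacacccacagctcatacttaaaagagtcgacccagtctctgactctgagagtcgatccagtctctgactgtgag
Oas3 (chr5:120777610-120777909, - strand): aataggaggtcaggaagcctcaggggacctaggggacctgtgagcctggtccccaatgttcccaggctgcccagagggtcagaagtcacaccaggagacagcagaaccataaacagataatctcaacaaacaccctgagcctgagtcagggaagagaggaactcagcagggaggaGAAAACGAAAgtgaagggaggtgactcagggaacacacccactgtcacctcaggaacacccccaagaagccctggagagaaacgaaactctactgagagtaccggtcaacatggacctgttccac
Irf1 (chr11:53769764-53770063, + strand): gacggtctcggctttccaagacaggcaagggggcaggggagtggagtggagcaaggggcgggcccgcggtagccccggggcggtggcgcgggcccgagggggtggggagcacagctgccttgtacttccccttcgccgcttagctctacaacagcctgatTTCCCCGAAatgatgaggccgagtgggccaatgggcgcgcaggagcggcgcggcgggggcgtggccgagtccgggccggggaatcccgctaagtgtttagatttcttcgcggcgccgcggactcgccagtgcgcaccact
Isg15 held 3 overlapping copies between 78 and 57 bases before its start, Gbp3 held 2 overlapping copies, Ifit3 held 2 separate copies, and Oas3 held 1. The gamma-activated site of Irf1 began 90 bases before the start.

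The members differed widely in level without a drug. Ifit3 lay between 0.695 and 1.21 FPKM in the Control samples and Ifi27l2a between 864 and 900 FPKM, so the sum over members follows the abundant ones. The summed FPKM was 2908 ± 10.6 in Control, 988 ± 17.0 with Metformin, 1315 ± 34.9 with FK506 and 1031 ± 41.3 under both drugs, and their share of all gene counts was 0.539%, 0.218%, 0.292% and 0.236%. The mean FPKM was highest in Control for 27 members and highest with FK506 for the other 11, and it was lowest with Metformin for 24. The most abundant member was Ifi27l2a, a small interferon-induced membrane protein. It was at 864, 900 and 866 FPKM in Control, 217, 214 and 192 with Metformin, 342, 333 and 305 with FK506, and 245, 209 and 255 with Metformin+FK506. The Control samples stood apart from all others, whereas the Metformin and Metformin+FK506 samples overlapped. Bst2 (tetherin, which holds budding virus at the cell surface) was at 296, 287 and 288 FPKM in Control, 72.1, 68.2 and 66.9 with Metformin, 63.4, 58.4 and 61.1 with FK506, and 70.6, 69.4 and 68.8 under both drugs. All 9 treated samples lay far under Control. Replicates were close: the median coefficient of variation of the members was 2.55% in Control, 5.84% with Metformin, 4.40% with FK506 and 6.29% under both drugs, and the highest were for Ifit3, Rtp4 and Iigp1.

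**Figure D2:**
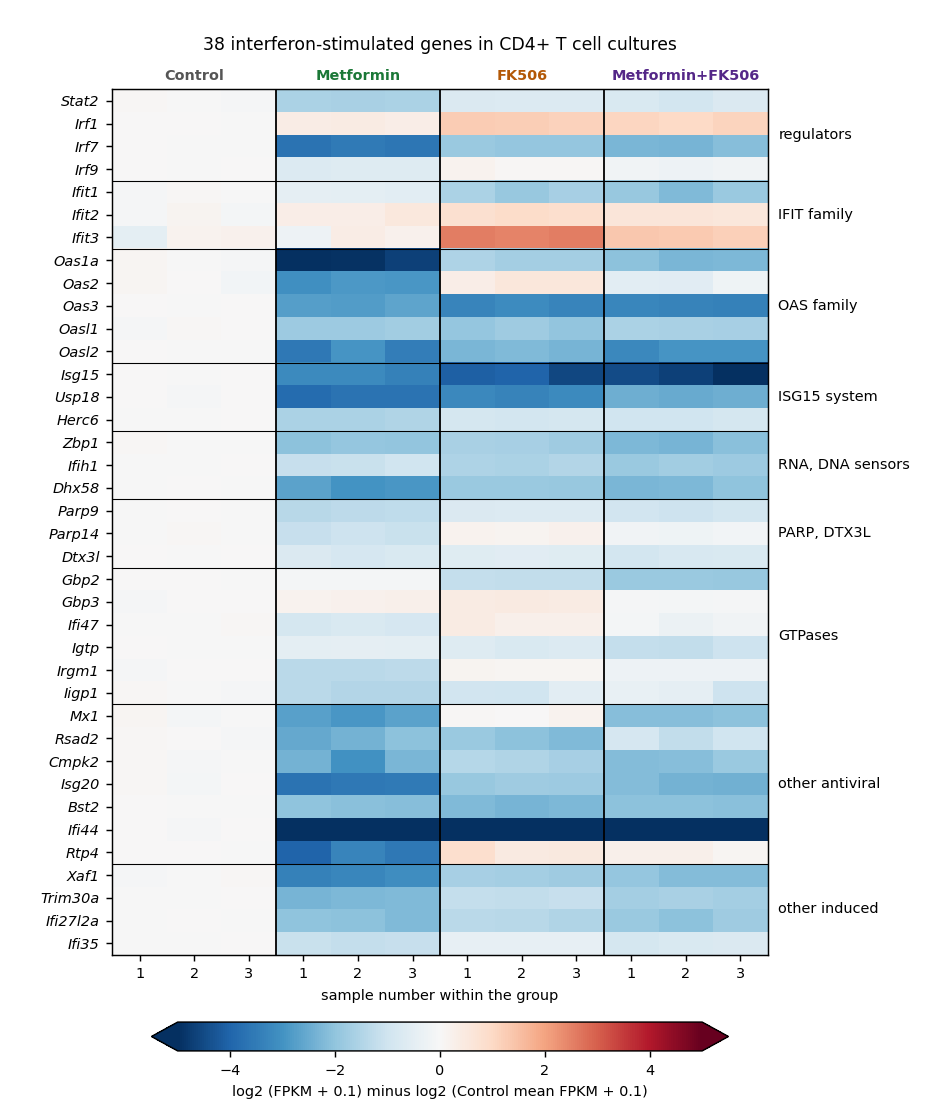
Each sample's log2 (FPKM + 0.1) minus that of the Control mean, for the 38 ISGs (rows, by role) in 12 samples (columns). Blue marks values under Control and red values over it (the scale ends at 5 either way); 27 of the 38 genes have their highest group mean in Control, and Irf1, Ifit2 and Ifit3 have their lowest there.

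Metformin alone lowered nearly the whole set. Against Control, 34 of the 38 members were lower and 3 (Irf1, Ifit2 and Gbp3) were higher, with Ifit3 not called. Of all 15197 genes tested, 27.4% were lower and 28.6% higher in edgeR's quasi-likelihood test at a Benjamini-Hochberg adjusted p under 0.05. With a log2 change of 1 or more also required, 28 members were lower and 0 higher, against 5.65% and 4.81% of all genes. The median log2 fold change was -1.93 over the members and 0.01 over all genes. Values of Control and Metformin samples did not overlap for 37 members, as for 65.0% of all genes. Of the 10 B cell markers 7 were higher and 1 lower in this comparison, and of the 9 tested macrophage and monocyte markers 2 were higher and 1 lower. Higher too were 3 of 4 tested plasmacytoid dendritic cell markers and 1 of 3 tested conventional dendritic cell markers, with 0 lower. So were 2 of 2 tested NK cell markers and 2 of 2 CD8 T cell markers. The part of all these markers in the members' differences was not tested.

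The largest fall with Metformin was that of Ifi44, an interferon-induced antiviral protein, at 20.3, 19.1 and 20.1 FPKM in Control and 0.263, 0.211 and 0.269 FPKM with Metformin. Its level was 79.1-fold lower (log2 -6.31, SE 0.12, edgeR adjusted p = 6.13e-16). Oas1a, an oligoadenylate synthetase that activates RNase L on sensing double-stranded RNA, fell from 28.9, 26.5 and 26.1 FPKM to 0.723, 0.793 and 0.979, or 30.7-fold. Its near-identical neighbour Oas1g, with which reads may be shared, changed by -5.38 on the log2 scale, so the split between them is uncertain. Rtp4, a transporter protein that inhibits the replication of some viruses, went from 6.30, 6.45 and 6.13 FPKM to 0.297, 0.549 and 0.436. In all 3 genes every Metformin sample lay far below every Control sample. All 5 OAS genes, all 3 genes of the ISG15 system, all 3 sensors, all 3 PARP and DTX3L genes and all 7 other antiviral effectors fell.

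The regulators moved apart. Irf7, the factor that amplifies type I interferon responses, was at 73.8, 70.4 and 71.3 FPKM in Control and 5.43, 6.12 and 5.75 with Metformin, 12.7-fold lower. Stat2 went from 55.5, 52.7 and 51.8 FPKM to 17.7, 17.1 and 17.8, and Irf9 from 40.6, 39.5 and 40.7 to 24.8, 25.9 and 25.8. Irf1 instead rose slightly, from 59.6, 59.4 and 58.4 FPKM to 76.2, 78.6 and 74.7 (log2 0.34, SE 0.033, edgeR adjusted p = 2.05e-07). None of the 4 had overlapping values between the groups. The other members that rose were Ifit2, from 4.40, 5.09 and 4.34 FPKM in Control to 5.80, 5.87 and 6.6, and Gbp3, from 15.4, 16.1 and 16.3 to 18.2, 18.5 and 19.0, again without overlap. Gbp2, a guanylate-binding GTPase induced above all by interferon-gamma, was at 193, 191 and 188 FPKM in Control and 178, 180 and 176 with Metformin, a log2 change of only -0.13. Its call was lost when libraries were scaled to T cell genes (log2 -0.07, adjusted p = 0.0726). The 6 GTPases had a median log2 change of -0.68, against -3.42 in the OAS family.

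FK506 alone also lowered most members, but not all. Against Control, 29 were lower and 6 higher (Irf1, Ifit2, Ifit3, Oas2, Gbp3 and Rtp4), while Parp14, Ifi47 and Mx1 were not called. Under the T cell gene scaling Ifi47 was called higher (log2 0.65, edgeR adjusted p = 4.58e-09), as it was in both FPKM tests (0.30), and the fall of Ifi35 went from -0.63 to -0.06 and lost its call (adjusted p = 0.239). These counts stand beside a broad change of the transcriptome, in which 39.6% of all genes tested were lower and 41.3% higher. With the log2 change of 1 or more required, 21 members were lower and 1 higher, against 16.7% and 19.8% of all genes. The median log2 change was -1.42 over the members and 0.02 over all genes, and under the T cell gene scaling it was -0.86 and 0.59. In FPKM, 37 members did not overlap between the groups, as for 84.4% of all genes. The B cell and macrophage markers differed in the same comparison, with all 10 B cell markers and all 9 tested macrophage and monocyte markers higher. Of 12 general T cell genes 9 were lower and 3 higher, whereas all 4 genes of the helper T cell lineage list were higher, and the part of these lists in the members' differences was not tested.

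The deepest falls with FK506 were in Ifi44, Isg15 and Oas3. Ifi44 was at 0.345, 0.360 and 0.277 FPKM with FK506, a log2 change of -6.10 from the Control values given above. Isg15, a ubiquitin-like protein that is attached to other proteins, went from 189, 182 and 189 FPKM to 10.9, 11.5 and 7.89, or 21.3-fold lower (log2 -4.41, SE 0.12, edgeR adjusted p = 3.45e-15). Oas3 went from 71.1, 69.8 and 70.9 FPKM to 7.13, 7.89 and 7.01. None of these values overlapped with Control. The promoters of Isg15 and Oas3 printed above both hold the response element, whereas none was found in the window of Ifi44. Over the 14 members with the element 12 were lower and 2 higher with FK506, and over the 4 with the gamma-activated site alone 2 were lower and 2 higher. Over the 10 with neither motif 9 were lower and 0 higher, and over the 10 without a window 6 were lower and 2 higher, beside the 39.6% of all genes that were lower.

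The member that rose most with FK506 was Ifit3, one of the IFIT proteins that bind foreign RNA. It was at 0.695, 1.14 and 1.21 FPKM in Control and 6.41, 6.05 and 6.45 with FK506, 5.35-fold higher (log2 2.42, SE 0.19, edgeR adjusted p = 3.74e-09). Its close paralog Ifit3b rose too, by 3.13 on the log2 scale, and reads of the pair may be shared. Ifit2 rose from the Control values above to 8.01, 8.85 and 8.22 FPKM. Ifit1, in the same cluster on chromosome 19, was called lower, from 11.4, 12.4 and 11.8 FPKM to 3.87, 3.08 and 3.65. Samples of Control and FK506 did not overlap for any of the 3 IFIT genes. The gene Ifit1bl1, which overlaps Ifit1 in the annotation, had 13, 17 and 37 counts in Control and 1811, 1681 and 1254 with FK506, while Ifit1 had 1585, 1983 and 1924 and then 700, 519 and 480. How reads of this pair were shared is not stated, so the direction of Ifit1 is uncertain.

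Among the regulators, Irf1 rose with FK506 to 142, 139 and 133 FPKM, 1.93-fold over Control. Irf7 fell to 19.9, 18.6 and 18.7 FPKM and Stat2 to 32.0, 33.3 and 33.6, in both cases between the Metformin and the Control values without overlap. Irf9, the DNA-binding partner of STAT2, was at 45.9, 42.4 and 42.2 FPKM, over Control in FPKM, yet was called lower in the fit on counts (log2 -0.09, adjusted p = 0.033). That call turned to 0.11 when FPKM were tested with limma and to 0.47 when libraries were scaled to T cell genes, so no direction is given for Irf9. Leaving out any of Control sample 3, FK506 samples 2 or 3, or any Metformin+FK506 sample also ended its call, with log2 values of -0.09 to -0.06. The median log2 change of all genes in this comparison was 0.02, but 0.59 with the T cell gene scaling and 0.19 in log2 (FPKM + 1), so that Irf9 lay under the median of all genes each time. Irgm1 (log2 -0.12) likewise turned positive under both.

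Some members that metformin lowered stayed near Control with FK506. Mx1, annotated as a transcribed pseudogene in this strain's reference and otherwise a GTPase that blocks influenza virus, was at 17.4, 15.3 and 16.3 FPKM in Control, 2.40, 2.1 and 2.47 with Metformin and 16.9, 16.5 and 18.5 with FK506. The Control and FK506 samples overlapped (log2 -0.14, edgeR adjusted p = 0.066). The call for Mx1 was gained without Control sample 2 (-0.19), Metformin sample 2 (-0.14) or FK506 sample 3 (-0.18), and under the T cell gene scaling it turned to 0.43. Rtp4 was at 11.5, 8.52 and 8.93 FPKM with FK506, over all 3 Control samples, and rose by 0.50 on the log2 scale. Oas2 was at 1.71, 1.62 and 1.46 FPKM in Control, 0.105, 0.135 and 0.124 with Metformin and 2.03, 2.42 and 2.39 with FK506. The rise of Oas2 with FK506 (log2 0.34, adjusted p = 0.0377) was lost without Control sample 2 (0.34), Control sample 3 (0.27), FK506 sample 2 (0.30) or FK506 sample 3 (0.33), and with no filter on low values (0.31).

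**Figure D3:**
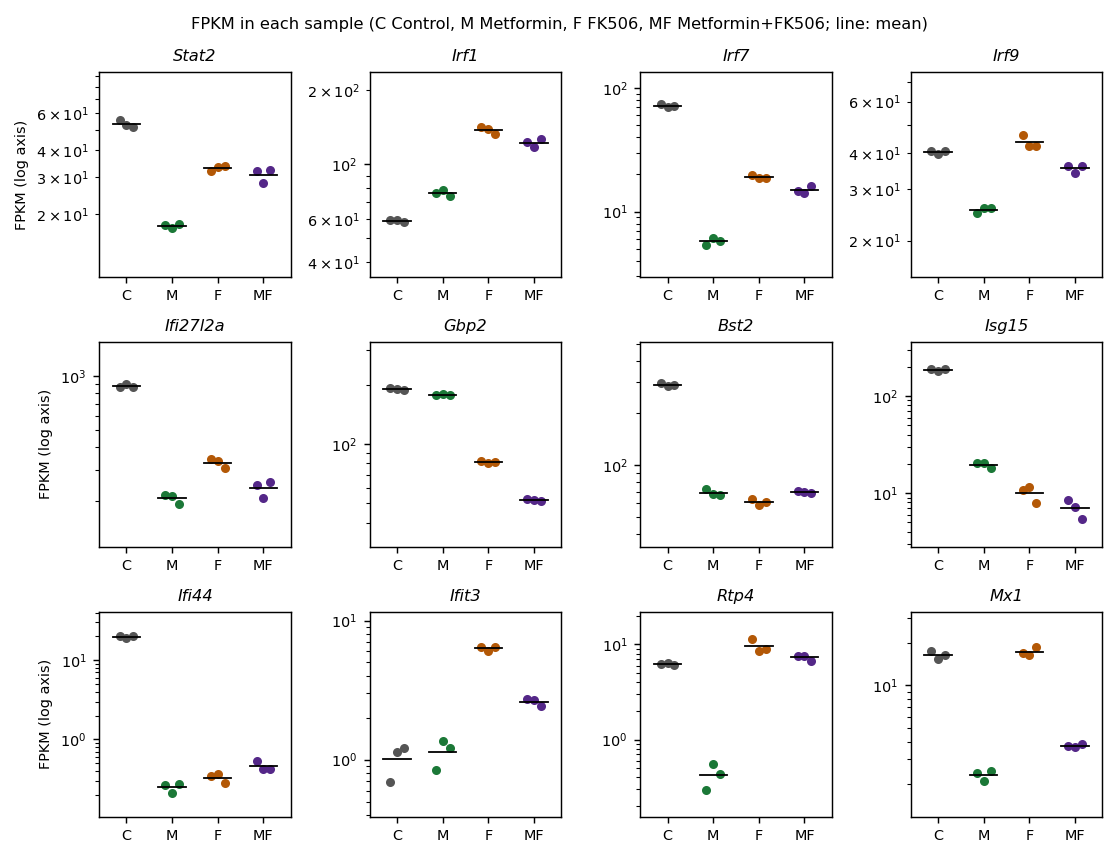
FPKM (log axis, each panel with its own range) of the 4 regulators, the 3 most abundant members and 5 further ISGs in every sample (points) with group means (lines). Ifi44 and Isg15 lie far under Control in all 9 treated samples, Mx1 and Rtp4 fall with Metformin but not with FK506, and Irf1 and Ifit3 are highest with FK506.

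Metformin+FK506 against Control again lowered most members. In this comparison 34 members were lower and 3 (Irf1, Ifit2 and Ifit3) higher, with Rtp4 not called. Of all genes tested 39.6% were lower and 42.1% higher. With a log2 change of 1 or more there were 25 lower and 1 higher, against 17.3% and 20% of all genes, and the median was -1.85 over the members and 0.03 over all genes. All 10 B cell markers and all 9 tested macrophage and monocyte markers were higher here too, 9 of 12 general T cell genes were lower and 2 higher, all 4 genes of the helper T cell lineage list (Cd4 and Trac among them) were higher, and their part in the members' differences was not tested. As the 3 comparisons share the Control samples, their values are given side by side and their likeness was not measured.

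Ifi44 was at 0.540, 0.419 and 0.417 FPKM with Metformin+FK506, Isg15 at 8.41, 7.24 and 5.34, and Oas3 at 7.21, 6.89 and 6.66. Their log2 changes from Control were -5.62, -4.91 and -3.55. Isg15 thus had its lowest group mean with both drugs (adjusted p = 1.6e-15 by edgeR's test against Control), although FK506 sample 3 overlapped with the combination. Ifit3 was at 2.72, 2.67 and 2.42 FPKM, between Control and FK506 (log2 1.15 against Control), Ifit2 at 7.09, 7.10 and 6.89, and Irf1 at 124, 118 and 127. Gbp3, at 21.4, 21.9 and 21.0 FPKM with FK506, was at 15.1, 14.8 and 15.4 with both drugs and overlapped with Control. Irf7 was at 14.8, 14.3 and 16.2 FPKM, Stat2 at 31.8, 28.0 and 32.2 and Irf9 at 36.0, 34.1 and 36.0. Gbp2 was lowest here, at 52.7, 52.2 and 51.5 FPKM against 82.2, 80.5 and 81.3 with FK506, and no sample overlapped with any other group. Of the weaker changes, those of Irf9, Parp14, Gbp3 and Ifi47 changed sign under the T cell gene scaling. That scaling also ended the calls of Oas2 (log2 -0.08, edgeR adjusted p = 0.597) and Irgm1 (-0.03, adjusted p = 0.457) and left 28 members lower, and Gbp3 was not called in either FPKM test. Rtp4 was called higher under it (log2 0.57, edgeR adjusted p = 0.000616).

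**Figure D4:**
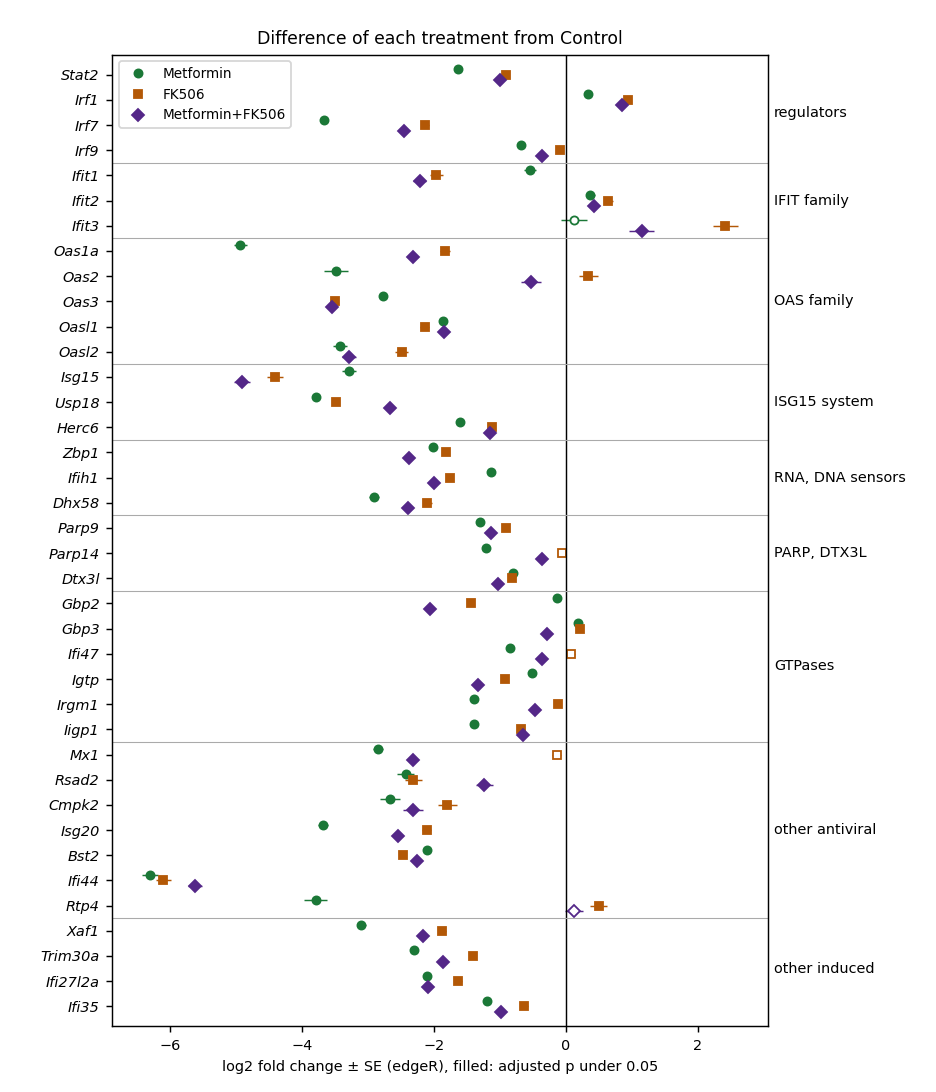
Log2 fold change with its SE (edgeR) of each of the 38 ISGs in each treatment against the shared Control samples, by role; filled symbols have an adjusted p under 0.05. Most symbols lie left of 0, the IFIT family spreads from -2.21 (Ifit1, of uncertain direction) to 2.42, and Ifi44 lies near -6 in all 3 comparisons.

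Adding metformin to FK506 lowered most members, nearly all of them by less than 1 log2 unit. Metformin+FK506 against FK506 gave 28 members lower and 5 higher (Oasl1, Usp18, Rsad2, Bst2 and Ifi44), and of all genes 15% were lower and 15.6% higher. Changes of 1 log2 unit or more were 2 falls (Mx1 and Ifit3) and 1 rise (Rsad2), against 2.3% and 1.91% of all genes. The median was -0.31 over the members and 0.00 over all genes. Values did not overlap for 32 members, as for 38.6% of all genes. In this comparison all 10 B cell markers were lower, and of the 9 tested macrophage and monocyte markers 3 were higher and 1 lower, and their part in the members' differences was not tested.

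The exception in size was Mx1, which fell from 16.9, 16.5 and 18.5 FPKM with FK506 to 3.71, 3.67 and 3.86 with both drugs, 4.54-fold lower (log2 -2.18, SE 0.072, edgeR adjusted p = 5.68e-12). Ifit3 changed by -1.27 and Oas2 by -0.87 on the log2 scale, Oas2 reaching 1.09, 1.05 and 1.38 FPKM. Rsad2 (viperin, which makes a chain-terminating nucleotide) rose from 1.85, 1.58 and 1.40 FPKM to 3.84, 2.87 and 3.40, 2.11-fold. Usp18, which removes ISG15 from proteins and dampens receptor signalling, rose from 8.34, 7.82 and 8.54 FPKM to 14.5, 13.8 and 14.6 (log2 0.82). Samples of the groups did not overlap in any of these 5 genes. The rise of Ifi44 (log2 0.49) lost its call without FK506 sample 3 (0.39) or Metformin+FK506 sample 1 (0.35). It was also lost under the T cell gene scaling (0.37, adjusted p = 0.0616), in both FPKM tests by limma (adjusted p = 0.119 and 0.0547) and when only the compared groups were fitted (adjusted p = 0.193). The rises of Oasl1 and Bst2 lost their calls under the T cell gene scaling.

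Adding FK506 to metformin raised more members than it lowered. Metformin+FK506 against Metformin gave 23 members higher and 10 lower, and of all genes 40.3% were higher and 37.9% lower. By 1 log2 unit or more, 8 rose and 3 fell, against 17.6% and 14.6% of all genes. The median was 0.45 over the members and 0.02 over all genes, and 0.83 and 0.41 under the T cell gene scaling. All 4 regulators were higher, Irf7 by 1.22, Stat2 by 0.65, Irf1 by 0.52 and Irf9 by 0.31 on the log2 scale. All 10 B cell markers and all 9 tested macrophage and monocyte markers were higher as well, and their part in the members' differences was not tested.

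Rtp4 rose most, from 0.297, 0.549 and 0.436 FPKM with Metformin to 7.63, 7.60 and 6.76 with both drugs, 15.1-fold (log2 3.92, SE 0.17, edgeR adjusted p = 3.21e-12). Oas2 rose by 2.95 and Oas1a, now at 6.55, 5.56 and 5.60 FPKM, by 2.62. The falls were led by Gbp2 (log2 -1.93), Ifit1 (from 8.56, 8.33 and 8.15 FPKM to 3.08, 2.49 and 3.25, log2 -1.67) and Isg15 (from 20.5, 20.2 and 18 FPKM, log2 -1.63). In all 6 genes the groups were separated without overlap, as for 34 members and 78.2% of all genes. The direction of Ifit1 is uncertain here too, as the overlapping gene Ifit1bl1 was far higher with both drugs than with Metformin. Bst2 was called lower (log2 -0.15) but its samples overlapped, and it turned to 0.24 under the T cell gene scaling and to 0.01 in both FPKM tests. Zbp1 and Dtx3l also changed sign under the T cell gene scaling.

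The interaction asked whether metformin did the same with and without FK506. It is the log2 change made by metformin beside FK506 minus the one it made alone. It was positive for 31 members and negative for 5 (Irf1, Ifit2, Ifit3, Gbp2 and Gbp3), with Ifit1 and Igtp not called, and of all genes 22.5% were positive and 24% negative. Of size 1 or more, 24 were positive and 1 negative, against 5.91% and 6.02% of all genes. The median was 1.56 over the members. The largest was for Ifi44, whose change with metformin was -6.31 without FK506 and 0.49 with it (interaction 6.79, SE 0.19, edgeR adjusted p = 1.45e-13). With FK506 alone Ifi44 already lay under 0.5 FPKM in every sample (log2 -6.10 from Control), so a further fall could hardly show. Usp18 followed, with -3.78 and 0.82 (interaction 4.60), and Oas1a with -4.94 and -0.48 (interaction 4.46). Usp18 was at 80.6, 76.8 and 80.5 FPKM in Control and 5.47, 6.12 and 6.06 with Metformin, under its FK506 values given above. Oas1a was at 9.30, 8.41 and 8.32 FPKM with FK506, between its Control and Metformin values. For Rtp4, metformin made a change of -3.79 alone and -0.37 with FK506 (interaction 3.42). Mx1 was the member with the largest fall beside FK506, with a change by metformin of -2.84 alone and -2.18 with FK506 (interaction 0.66).

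**Figure D5:**
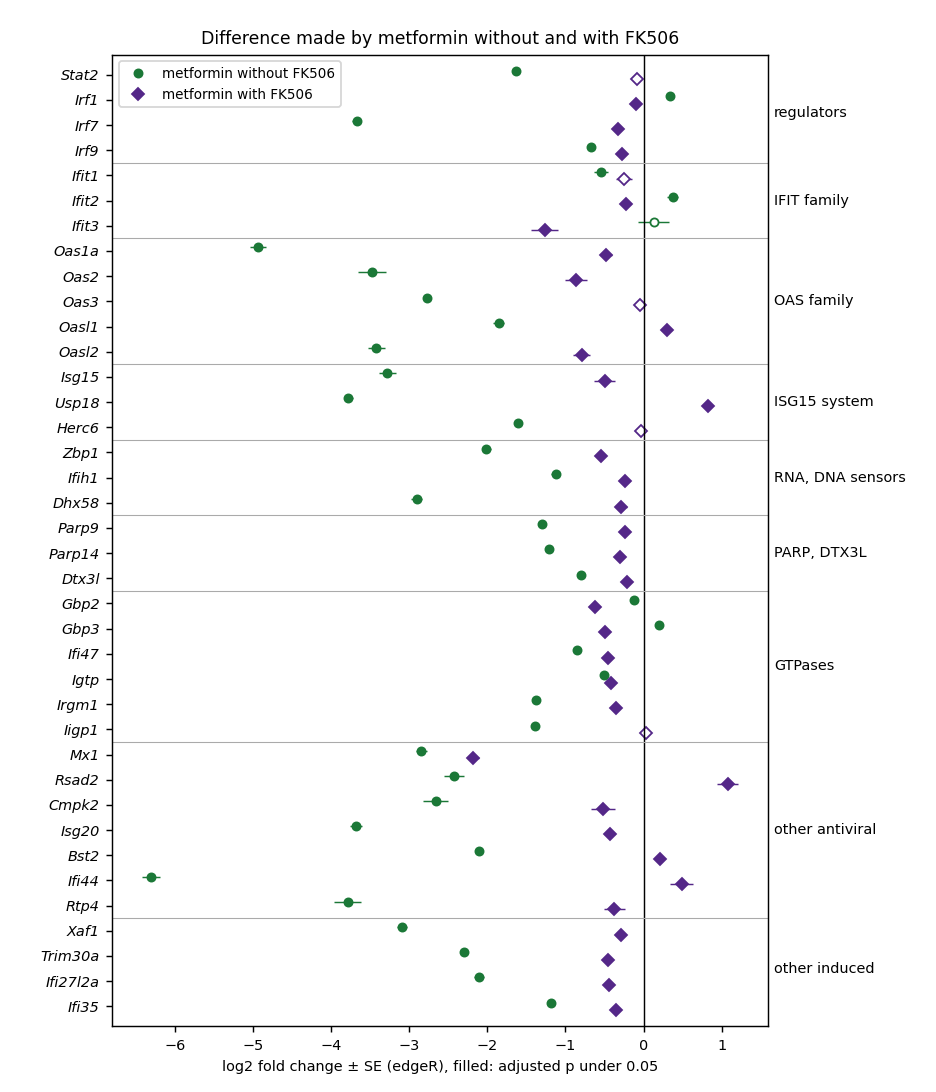
Log2 fold change with its SE (edgeR) made by metformin without FK506 (Metformin against Control) and with it (Metformin+FK506 against FK506), for the 38 ISGs by role; filled symbols have an adjusted p under 0.05. Without FK506 the changes reach -6.31, with it they gather near 0, with Mx1 at -2.18 as the largest fall.

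The signals upstream of the members were examined through lists of the pathway. Of 12 interferon genes only Ifng passed the filter on low values. Ifng, which encodes the interferon made by activated T cells, was at 11.0, 10.9 and 10.3 FPKM in Control, 7.43, 6.80 and 7.69 with Metformin, 3.58, 2.97 and 2.39 with FK506 and 4.88, 5.16 and 3.96 with Metformin+FK506. No Control sample overlapped with a treated one. Its log2 change from Control was -0.59, -2.06 and -1.38 in that order. Ifnb1 was near the floor in every group, with 14, 16 and 18 counts in Control, 4, 7 and 4 with Metformin and 0 in every sample with FK506, with or without metformin.

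Of 8 receptor and kinase genes, 6 were higher and 2 lower with Metformin, 7 higher and 1 lower with FK506, and 6 higher and 1 lower with Metformin+FK506. Of all genes, 28.6%, 41.3% and 42.1% were higher and 27.4%, 39.6% and 39.6% lower in the same order. B cell and macrophage markers were also higher with FK506, and their part in these rises was not tested. Ifngr1, the ligand-binding chain of the interferon-gamma receptor, was at 28.7 ± 1.66 FPKM in Control, 61.8 ± 2.15 with Metformin, 115 ± 4.04 with FK506 and 99.1 ± 1.08 under both drugs. Ifnar1, a chain of the type I receptor, rose by 0.45, 0.94 and 0.77 on the log2 scale, and Ifnar2 by 0.39, 0.66 and 0.76. Jak2, a kinase of the interferon-gamma receptor, fell by 0.34, 1.03 and 0.98.

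Among 11 sensors and adaptors that lead to interferon production, 1 was higher and 6 lower with Metformin, 6 were higher and 3 lower with FK506, and 6 higher and 4 lower with Metformin+FK506. Of all genes, 28.6% were higher and 27.4% lower with Metformin, 41.3% and 39.6% with FK506, and 42.1% and 39.6% with Metformin+FK506, so the list's counts with FK506 lay near those shares. The largest rise with FK506 was that of Tlr9 (log2 5.58), an endosomal DNA sensor of B cells and dendritic cells. The B cell markers of these cultures were also higher, and their part in this rise was not tested.

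Outside the 38 members, 46 further interferon-induced genes were tested. With Metformin 35 were lower and 4 higher, where 27.4% and 28.6% of all genes were. With FK506 23 were lower and 17 higher, against 39.6% and 41.3% of all genes, and with Metformin+FK506 26 were lower and 15 higher, against 39.6% and 42.1%. Cxcl9, a chemokine that macrophages make under interferon-gamma, rose most with FK506 and with Metformin+FK506 (log2 6.67 and 7.10), and Mx2 fell most (-3.24 and -4.22). With Metformin the largest fall was that of Oas1g. Ifitm3, which blocks virus entry, was at 32.5 ± 1.65 FPKM in Control and 1.32 ± 0.175 with Metformin. Of 9 genes of MHC class I presentation, 7 were lower and 0 higher with Metformin, and 6 were lower and 2 higher with FK506 and with Metformin+FK506, where 39.6% of all genes were lower in either comparison. The part of macrophage and B cell RNA in the rises was not tested.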

How the data were processed

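RNA-seq was made from 12 samples in 4 groups of 3. The submitters' processing notes name bcl2fastq (2.20.0), Trimmomatic, HISAT2 (2.1.0), StringTie (2.1.3b) and the build mm10. The authors deposited read counts and FPKM per gene, and whether counting used strand or split reads shared by paralogs is not given in the sources used here. The 12 deposited TPM columns were not used.

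Counts were tested with edgeR (4.0.16, R 4.3.3): TMM scaling, a quasi-likelihood fit over all 4 groups (8 residual degrees of freedom), 15197 genes that reached 0.5 FPKM in 3 or more samples, and Benjamini-Hochberg adjustment over all of them. Levels are deposited FPKM, mean ± SD. The script was tested on simulated data. Alternatives used other scalings (including 12 general T cell genes), DESeq2 (1.42.0), limma (3.58.1) on log2(FPKM + 1) and log2(FPKM + 0.1), other filters, a replicate block, a log2 threshold of 1 and leaving out each sample.

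The members and lists were chosen with earlier results of these data known. Values in every sample are given for the 3 largest called rises and falls without overlap in each comparison, the 4 regulators and the 3 most abundant members. Other named genes are the interferon ligands and receptors and the largest change in each list, and Tlr9, Jak2 and the paralogs Ifit3b and Oas1g were named after their values were seen. A list of further factors and inhibitors, to which Socs1 of the naming rule belongs, is not reported here. Replicate numbers did not pair the samples: 0 of 18 pairs of same-numbered samples had a correlation of deviations over 0.1 (-0.09 to 0.05).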

Additional observations from a re-analysis of the deposited data

Results flagged for a closer look

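The change made by metformin differed with and without FK506 for 36 of the 38 ISGs, by the interaction term of the edgeR fit. Of all genes tested, 22.5% had a positive and 24% a negative interaction by the same test. Groups of 3 samples were too small for a test of outlying samples. The regulators had interactions of 1.55 (Stat2), -0.43 (Irf1), 3.35 (Irf7) and 0.40 (Irf9) on the log2 scale. In the IFIT family Ifit2 had -0.60 and Ifit3 -1.40. The OAS genes had 4.46 (Oas1a), 2.61 (Oas2), 2.73 (Oas3), 2.15 (Oasl1) and 2.63 (Oasl2), and the ISG15 system had 2.79 (Isg15), 4.60 (Usp18) and 1.57 (Herc6). The sensors had 1.46 (Zbp1), 0.89 (Ifih1) and 2.62 (Dhx58), and the PARP and DTX3L genes had 1.07 (Parp9), 0.91 (Parp14) and 0.59 (Dtx3l).

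Among the GTPases the values were -0.49 (Gbp2), -0.68 (Gbp3), 0.40 (Ifi47), 1.03 (Irgm1) and 1.41 (Iigp1). The other antiviral effectors had 0.66 (Mx1), 3.51 (Rsad2), 2.15 (Cmpk2), 3.25 (Isg20), 2.32 (Bst2), 6.79 (Ifi44) and 3.42 (Rtp4). The remaining genes had 2.81 (Xaf1), 1.83 (Trim30a), 1.66 (Ifi27l2a) and 0.83 (Ifi35). The 5 negative values were those of Irf1, Ifit2, Ifit3, Gbp2 and Gbp3. Among the B cell markers 9 of 10 also had a called interaction, all of them negative, and their part in these values was not tested.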

How the results depend on the processing

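With libraries scaled to 12 general T cell genes, 11 members were higher with FK506 and 5 with Metformin+FK506 than in Control, 2 were higher with Metformin+FK506 than with FK506, and 6 were lower with Metformin+FK506 than with Metformin. In the FPKM tests with a pseudocount of 1 and of 0.1, 10 and 10 were higher with FK506 than in Control. Requiring a log2 change of 1 or more as well left 0, 1 and 1 members higher than Control with Metformin, FK506 and Metformin+FK506, 1 higher and 2 lower for Metformin+FK506 against FK506, 8 and 3 for Metformin+FK506 against Metformin, and 1 negative interaction, as that rule drops smaller changes. Single genes turned as follows. Against Control with FK506, Mx1 turned to 0.43 under the T cell gene scaling, Parp14 to 0.50, Irgm1 to 0.45 and Irf9 to 0.47. In the FPKM tests Parp14 turned to 0.17 and 0.18, and Irgm1 and Irf9 to 0.11 in both. With Metformin+FK506, Gbp3 turned to 0.16, Irf9 to 0.077, Parp14 to 0.078 and Ifi47 to 0.074 under the T cell gene scaling. Against Metformin, Bst2 turned to 0.24 under it and to 0.011 and 0.012 in the FPKM tests, and Zbp1 turned to 0.027 and Dtx3l to 0.17 under it. The cause of these turns was not tested. The T cell gene scaling raised the median log2 change of all genes to 0.59 (FK506), 0.47 (Metformin+FK506) and 0.41 (Metformin+FK506 against Metformin), and lowered it to -0.12 (Metformin+FK506 against FK506) and -0.20 (interaction). It moved the share of all called genes that were higher with FK506 from 51.1% to 75.4%, and the FPKM tests moved it to 61.3% and 61.5%. Under the T cell gene scaling that share went from 51.6% to 70.8% with Metformin+FK506 against Control, from 50.9% to 19.2% against FK506, from 51.6% to 72.1% against Metformin and from 48.3% to 27.0% for the interaction.

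The replicate block gave 3 higher and 34 lower with Metformin, 6 and 30 with FK506, 3 and 34 with Metformin+FK506, 5 and 26 against FK506, 24 and 10 against Metformin, and 31 and 5 for the interaction. Its calls differed from the fit without it for Mx1, Irf1, Rtp4 and Cmpk2. Leaving out each sample in turn moved no count by more than 1.5 times. In Metformin+FK506 against FK506 it ended the call of Irf1 in 9 of 12 cases (log2 -0.10 to -0.08), those without Metformin sample 2, FK506 sample 2 and Metformin+FK506 sample 3 being the exceptions. It ended that of Rtp4 without Control sample 2 (-0.37), FK506 sample 1 (-0.24), Metformin+FK506 sample 1 (-0.40) or Metformin+FK506 sample 3 (-0.32), and those of Isg15 (-0.41) and Ifit2 (-0.20) without FK506 sample 2. Other calls changed as well. With FK506 against Control, Irf9 was lost with the DESeq2 size factors, the upper-quartile scaling, the DESeq2 test, a mean FPKM of at least 1 and only the compared groups. Ifi47 was gained with the upper-quartile scaling (0.12) and a mean FPKM of at least 1 (0.11), Parp14 and Mx1 with no filter. Against FK506, the T cell gene scaling added Stat2, Ifit1, Oas3 and Herc6 as lower, the DESeq2 test added Ifit1, and the FPKM test with a pseudocount of 0.1 lost Rtp4. Against Metformin, the T cell gene scaling and both FPKM tests added Ifit2, Oasl1, Cmpk2 and Ifi27l2a, the scaling also added Oasl2 and lost Gbp3, the FPKM tests lost Dtx3l, and Cmpk2 was added with the DESeq2 size factors, the DESeq2 test and a mean FPKM of at least 1. For Metformin+FK506 against FK506, fitting only the compared groups ended the calls of Irf1 (-0.09) and Isg15 (-0.50), and that of Cmpk2 was lost without FK506 sample 1 (-0.47) or Metformin+FK506 sample 1 (-0.45). Against Metformin, Cmpk2 was gained as higher without Metformin sample 1 (0.43), Metformin sample 3 (0.50) or Metformin+FK506 sample 1 (0.44), and Oasl2 without Metformin sample 2 (0.31). Ifit1 was gained as lower against FK506 without FK506 sample 2 (-0.35) or Metformin+FK506 sample 3 (-0.33). In the interaction it was gained as positive without FK506 sample 1 (0.36) or Metformin+FK506 sample 2 (0.39). The precision is limited by the 3 samples a group, whose origin is not stated. Markers of other cells were higher in the FK506 cultures, and their part in the log2 changes was not tested. For paralogs such as Ifit3 and Ifit3b or Oas1a and Oas1g, and for overlapping genes such as Parp9 and Dtx3l, the counting of shared reads is not stated.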

Other observations

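Beyond the comparisons above, the plasmacytoid dendritic cell list, whose cells are known as large producers of type I interferon, summed to 6.78 ± 0.88 FPKM in Control, 23.2 ± 0.833 with Metformin, 57.3 ± 1.38 with FK506 and 34.8 ± 1.98 under both drugs (SD, n = 3). With FK506, 3 of its 6 markers were called higher than in Control, as were 41.3% of all genes, and Cox6a2 lower (log2 -2.95). With Metformin and with Metformin+FK506 3 were higher and 0 lower, where 28.6% and 42.1% of all genes were higher. Siglech and Klk1 were not tested because of low values. Of these, Siglech was listed at 0 in all 3 Control samples and Klk1 at 0 in all samples of Metformin, FK506 and Metformin+FK506 too. The 5 NK cell markers summed to 1.38 ± 0.124, 5.56 ± 0.388, 14.4 ± 0.449 and 13.3 ± 0.427 FPKM in the same order.

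Ifit1bl1, a paralog of Ifit1 whose gene overlaps it in the annotation, was at 0.146 ± 0.0864 FPKM in Control, 0.386 ± 0.0409 with Metformin, 11.3 ± 0.329 with FK506 and 9.45 ± 0.725 under both drugs. For Iigp1 the count per FPKM, after division by library size, differed 1.57-fold between samples, against at most 1.25-fold for the other 37 members. Its FPKM were 10.6, 10.3 and 14.5 with FK506 and 16.0, 15.1 and 10.2 with Metformin+FK506, and its log2 change on counts between these groups was 0.03 (edgeR adjusted p = 0.725).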
